A study of Mus musculus with 24 samples.

Results

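The genes described here are 10 that cytotoxic T cells and natural killer (NK) cells use: the granule proteases Gzma, Gzmb and Gzmk, the granule proteins Prf1 and Nkg7, the receptors Klrd1, Klrk1 and Klrg1, the cytokine receptor chain Il2rb and the cytokine Ifng. They were chosen by name, as all CL and Affy probes that the platform annotation assigned to them. On CL 9 of the 10 genes had a probe, 9 probes of 17440 in all, and no CL probe was listed for Gzma. On Affy all 10 had at least 1 probe set, 12 of 22690 in all, with 2 each for Prf1 and Il2rb.

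RNA from whole lacrimal glands was measured in 4 groups of 3 pools: T-treated female NOD mice, placebo-treated female NOD mice, T-treated female MRL/lpr mice and placebo-treated female MRL/lpr mice. T is testosterone, given like the placebo (P) as a subcutaneous slow-release pellet to adults, for 21 days in NOD and 18 days in MRL/lpr mice according to the labels, whereas the study's methods give about the same length for both strains. NOD pools held glands of 2 to 4 mice and MRL/lpr pools glands of 6 mice, and the NOD mice were the older ones at implantation. CL (CodeLink) and Affy (Affymetrix) are 1-colour arrays, with 12 arrays each and 24 in all. The study's methods read as if the same preparations went on both platforms, so a call on both is not taken as an independent repeat.

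All MRL/lpr mice, placebo-treated ones included, carry the lpr mutation of the death receptor Fas, and NOD mice develop autoimmune diabetes as well as gland inflammation. Strain was confounded with age, treatment length and pool size, which cannot be told apart. A pool is not 1 animal, so the spread between pools understates the spread between mice.

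Cytotoxic lymphocytes kill by releasing granules. Perforin, the product of Prf1, opens the membrane of the target cell, and granzymes enter and cleave proteins that trigger cell death. NK cells decide by the balance of receptors: Klrk1 encodes the activating receptor NKG2D, which reads stress ligands, Klrd1 encodes CD94, which pairs with NKG2 chains to read the class I molecule Qa-1, and Klrg1 is an inhibitory receptor for cadherins that marks mature NK and effector T cells. Il2rb encodes the chain through which IL-2 and IL-15 keep these cells alive, and Ifng encodes interferon gamma, their main secreted signal to macrophages and epithelium. In inflamed exocrine glands such cells are part of the lymphocyte infiltrate.

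With T in NOD glands 4 of 8 genes tested on CL and 6 of 9 on Affy were called higher, and with T in MRL/lpr glands 3 of 8 were called on CL and 1 of 9 on Affy. Over all probes tested, 7.87% on CL and 5.53% on Affy were called higher with T in NOD glands. In MRL/lpr glands 12.5% and 6.9% of all probes tested were called in either direction. Klrk1, Gzmk and Nkg7 rose with T in NOD glands on both platforms, Gzmb rose on CL, and Gzma, Klrd1 and Il2rb rose on Affy. No member was called lower with T in NOD glands on either platform. In MRL/lpr glands Klrd1 fell on Affy and Nkg7 fell on CL, whereas Gzmb and Klrg1 rose on CL alone.

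Values are spot intensities for CL, where the median spot is near 1, and for Affy are signals scaled to a common trimmed mean of 500. A probe entered the test when a group mean exceeded a floor of 0.5 on CL and 70.5 on Affy, and lower signals were raised to that floor before log2 was taken, which understates changes of dim genes. On CL 8 of the 9 genes with a probe passed, and on Affy 9 of 10. Ifng passed on neither. Genes are called higher or lower when the adjusted p from limma, over all probes of the platform, was under 0.05. No direction is given for a difference smaller than its standard error (SE). In whole glands, fewer cells of a type and less RNA per cell cannot be told apart.

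Of the 8 members tested on CL, 4 were called higher and 0 lower with T in NOD glands, where 16.5% of all CL probes tested were called (7.87% higher and 8.6% lower). On Affy 6 of 9 were called higher and 0 lower, against 9.22% of all probe sets called (5.53% higher and 3.69% lower). The members' median log2 difference was 1.14 on CL and 1.36 on Affy, whereas the median over all probes tested was -0.096 on CL and 0 on Affy. After the floor, T pools lay wholly above placebo pools for 5 of 8 members on CL and wholly below for 1, a pattern seen for 13.1% and 20% of all CL probes. On Affy they lay wholly above for 6 of 9, against 13% of all probe sets. Il2rb on Affy entered the test only through T-treated NOD glands and Prf1 on CL only through placebo-treated MRL/lpr glands, so these counts and medians are descriptions. Several of the calls rested on single pools or on the floor, as given gene by gene.

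The picture in MRL/lpr glands was mixed. On CL 2 of 8 members were called higher with T and 1 lower, where 12.5% of all CL probes were called (6.89% higher and 5.65% lower). On Affy 0 of 9 were higher and 1 was lower, against 6.9% of all probe sets called (3.32% higher and 3.58% lower). The members' median log2 difference was -0.15 on CL and -0.26 on Affy, beside -0.015 and 0.019 over all probes tested. Pools did not overlap for 2 members above and 2 below placebo on CL, where 15.7% and 17.3% of all probes did so, and for 2 below placebo on Affy, where 13.6% did.

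**Figure D1:**
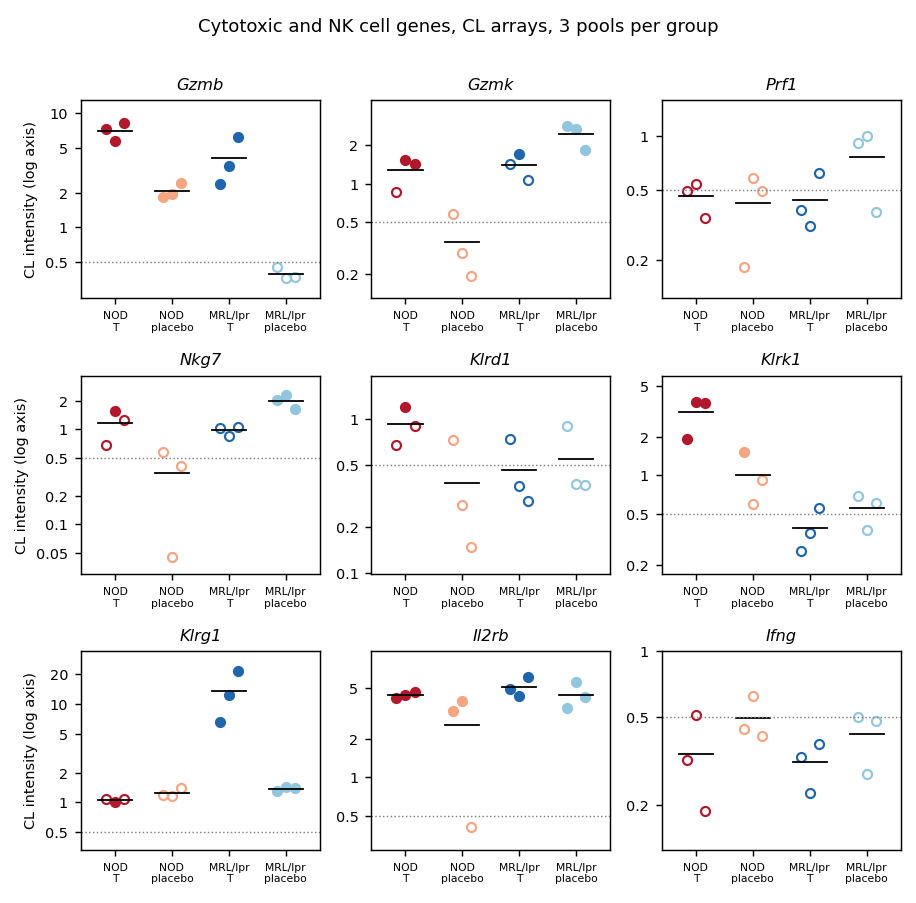
CL intensity (log axis, arbitrary units) of the 9 genes with a CL probe in the 3 pools of each group, with T left of placebo for NOD and then for MRL/lpr. Each point is 1 pool, open points were marked near background by the array software, bars are means and the dotted line is the floor of 0.5. Gzmb and Klrk1 were higher in T-treated than in placebo-treated NOD pools, and Klrg1 was high in the T-treated MRL/lpr pools.

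Of the granule proteases, Gzmb, which cleaves caspases, was higher with T in both strains on CL. It measured 7.22, 5.71 and 8.17 in T-treated NOD pools, against 1.84, 1.97 and 2.45 in placebo-treated NOD pools. It measured 2.42, 3.48 and 6.14 in T-treated MRL/lpr pools, against 0.45, 0.361 and 0.372 in placebo-treated MRL/lpr pools. Every T pool was above every placebo pool of its strain, and the 3 placebo-treated MRL/lpr pools were all near background. Gzmb was 3.36-fold higher with T in NOD glands (log2 1.75 ± 0.30 SE, adjusted p = 0.00167, n = 3 against 3). With T in MRL/lpr glands it was at least 3.79-fold higher (adjusted p = 5.17e-05), a bound taken against the lowest signal that the software marked above background on each array. Both calls held without any 1 pool.

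The Affy probe set for Gzmb gave another picture. It read 116, 75 and 50.3 in T-treated NOD pools, against 12.2, 2.9 and 5.46 in placebo-treated NOD pools. In T-treated MRL/lpr pools it read 97.9, 50.4 and 29.4, against 82.3, 144 and 57.5 in placebo-treated MRL/lpr pools. T pools were above placebo pools in NOD glands, as on CL, but the placebo pools were all under the floor and the test gave a log2 difference of 0.27 (adjusted p = 0.7). The MRL/lpr pools overlapped (adjusted p = 0.656), so the rise seen on CL was not found on Affy. The interval of the Affy difference in MRL/lpr glands ran from -0.88 to 0.36 on the log2 scale, and that of the CL difference from 2.24 to 3.56. Granzyme genes resemble each other in sequence, and whether either probe also bound a related transcript was not tested.

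Gzmk, a tryptase-like granzyme common in memory CD8 T cells, rose with T in NOD glands on both platforms. On CL it measured 0.866, 1.54 and 1.43 in T-treated NOD pools, against 0.58, 0.287 and 0.193 in placebo-treated NOD pools. In T-treated MRL/lpr pools it measured 1.43, 1.69 and 1.07, against 2.81, 2.69 and 1.84 in placebo-treated MRL/lpr pools. T pools lay above placebo pools in NOD and below them in MRL/lpr glands, with no overlap in either strain. The rise in NOD glands passed the test (log2 1.24 ± 0.27, adjusted p = 0.00758), without a usable fold because all 3 placebo pools were near background. The difference in MRL/lpr glands was log2 -0.81 (adjusted p = 0.0802).

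On Affy Gzmk read 139, 217 and 165 in T-treated NOD pools, against 43.3, 10.6 and 63.7 in placebo-treated NOD pools. It read 199, 83.3 and 187 in T-treated MRL/lpr pools, against 295, 183 and 310 in placebo-treated MRL/lpr pools. The NOD pools did not overlap, all placebo pools being under the floor, and the T pools were at least 2.42-fold higher (adjusted p = 0.0473). That adjusted p reached up to 0.155 when single pools were left out, and the call was kept without NOD T pool 1 or MRL/lpr T pool 2 but not without any of the other 10 pools. At a doubled floor Gzmk in NOD glands was not called on CL (adjusted p = 0.261) or Affy (adjusted p = 0.489).

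Gzma, the other tryptase-like granzyme, had an Affy probe set only. It read 332, 350 and 255 in T-treated NOD pools, against 112, 158 and 46.1 in placebo-treated NOD pools. In T-treated MRL/lpr pools it read 106, 65.9 and 160, against 272, 272 and 190 in placebo-treated MRL/lpr pools. The 3 T-treated NOD pools were all above the NOD placebo pools, and the 3 T-treated MRL/lpr pools were all below the MRL/lpr placebo pools. Gzma was 2.88-fold higher with T in NOD glands (log2 1.52 ± 0.40, adjusted p = 0.0204), a call lost without NOD T pool 2, NOD placebo pool 1 or NOD placebo pool 3 (adjusted p up to 0.103). The log2 difference in MRL/lpr glands was -1.19 (adjusted p = 0.0856).

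Promoter sequences of 7 of the 10 genes were found in a RefSeq table of windows that run from 250 bases before to 50 bases after the start of each gene. The 4 printed here belong to the 3 members called higher in NOD glands on both platforms, Gzmk, Nkg7 and Klrk1, and to Gzmb, on which the platforms differed. Capitals mark matches, on either strand, to the motifs named after them (build GRCm38.p6, strand of the gene, 5′ to 3′).
Gzmb (chr14:56262285-56262584, minus strand): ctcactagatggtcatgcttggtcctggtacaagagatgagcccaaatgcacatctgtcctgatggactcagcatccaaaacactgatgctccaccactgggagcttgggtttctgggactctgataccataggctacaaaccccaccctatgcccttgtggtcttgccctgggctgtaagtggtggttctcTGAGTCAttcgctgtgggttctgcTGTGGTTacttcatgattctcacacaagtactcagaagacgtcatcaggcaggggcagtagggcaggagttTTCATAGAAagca
Gzmk (chr13:113180916-113181215, minus strand): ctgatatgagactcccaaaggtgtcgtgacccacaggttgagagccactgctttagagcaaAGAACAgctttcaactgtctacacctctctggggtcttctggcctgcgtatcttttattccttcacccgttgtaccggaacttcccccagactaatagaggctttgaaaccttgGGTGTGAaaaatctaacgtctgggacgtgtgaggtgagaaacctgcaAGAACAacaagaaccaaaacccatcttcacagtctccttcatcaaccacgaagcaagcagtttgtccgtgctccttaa
Nkg7 (chr7:43436888-43437187, plus strand): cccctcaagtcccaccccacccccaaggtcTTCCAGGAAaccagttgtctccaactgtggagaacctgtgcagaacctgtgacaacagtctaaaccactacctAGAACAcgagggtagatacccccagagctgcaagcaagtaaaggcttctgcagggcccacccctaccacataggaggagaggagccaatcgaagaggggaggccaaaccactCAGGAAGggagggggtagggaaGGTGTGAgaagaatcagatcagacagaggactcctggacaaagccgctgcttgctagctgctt
Klrk1 (chr6:129623815-129624114, minus strand): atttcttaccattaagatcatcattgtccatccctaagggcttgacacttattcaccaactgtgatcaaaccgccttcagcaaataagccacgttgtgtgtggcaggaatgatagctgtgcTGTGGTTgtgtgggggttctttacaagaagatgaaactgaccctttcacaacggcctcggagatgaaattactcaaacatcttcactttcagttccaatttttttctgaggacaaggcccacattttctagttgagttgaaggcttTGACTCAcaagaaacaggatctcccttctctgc

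The motifs were searched as exact letters on both strands. RUNX factors, which cytotoxic T cells and NK cells need for granzyme and receptor expression, bind TGTGGTT, found in the windows of Gzma, Gzmb and Klrk1 and in 5.27% of all 32851 windows of the table. The T-box factors T-bet and Eomes bind TCACACC, found at Gzmk and Nkg7 and in 3.98% of all windows. AP-1 binds TGACTCA, found at Gzmb and Klrk1 (5.2% of all windows), and ETS factors bind CAGGAAG, found at Nkg7 and Prf1 (13.3%). STAT factors bind TTCNNNGAA, found at Gzmb, Ifng and Nkg7 (8.3%). The androgen receptor binds pairs of TGTTCT, of which at least 1 copy was found at Gzma, Gzmk and Nkg7 and in 19% of all windows. None of these matches overlapped another in the 4 printed windows. A match is only a run of letters, and binding was not measured.

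The granule membrane protein Nkg7, which helps granules to fuse, was called higher with T in NOD glands on both platforms. On CL it measured 0.681, 1.58 and 1.25 in T-treated NOD pools, against 0.579, 0.045 and 0.409 in placebo-treated NOD pools. In T-treated MRL/lpr pools it measured 1.03, 0.859 and 1.05, against 2.02, 2.31 and 1.64 in placebo-treated MRL/lpr pools. The pools of each strain did not overlap, and T lay above placebo in NOD and below it in MRL/lpr glands. The 3 NOD placebo pools and 2 of the 3 NOD T pools were near background, so the NOD difference depended on the floor and has no usable fold. It passed the test (log2 1.07 ± 0.28, adjusted p = 0.0199) but not without NOD T pool 2 or 3 or NOD placebo pool 2 or 3 (adjusted p up to 0.0777), nor at a doubled floor (adjusted p = 0.191). Nkg7 was at least 1.53-fold lower with T in MRL/lpr glands (adjusted p = 0.0327), a call lost without any of the 3 T pools or placebo pool 1 or 2 (adjusted p up to 0.12).

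On Affy Nkg7 read 431, 292 and 219 in T-treated NOD pools, against 109, 11.6 and 80 in placebo-treated NOD pools. It read 128, 256 and 373 in T-treated MRL/lpr pools, against 333, 174 and 197 in placebo-treated MRL/lpr pools. The NOD groups were apart and the MRL/lpr groups overlapped throughout. Nkg7 was 3.56-fold higher with T in NOD glands (log2 1.83 ± 0.43, adjusted p = 0.0103), a call lost without NOD placebo pool 2 (adjusted p = 0.0581). The fall seen in MRL/lpr glands on CL was not found on Affy, where the log2 difference was 0.03 with an interval from -0.87 to 0.94.

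Prf1 encodes perforin, and all 12 of its CL pools carried the near-background mark, at 0.345 to 0.539 in T-treated NOD, 0.184 to 0.579 in placebo-treated NOD, 0.312 to 0.621 in T-treated MRL/lpr and 0.373 to 1.0 in placebo-treated MRL/lpr glands. The brighter of its 2 Affy probe sets read 145, 27 and 31.5 in T-treated NOD pools, against 88.7, 94.8 and 84.3 in placebo-treated NOD pools. It read 39.5, 229 and 76.8 in T-treated MRL/lpr pools, against 45.5, 149 and 14.4 in placebo-treated MRL/lpr pools. T and placebo pools overlapped in both strains. The other set read 152, 40.3 and 63.4 in T-treated NOD pools, against 58.8, 14.5 and 81.8 in placebo-treated NOD pools. In MRL/lpr glands it read 85.2, 105 and 70 with T, against 132, 12.4 and 54.2 with placebo, again overlapping. Neither set nor the CL probe was called in any comparison, and the lowest adjusted p was 0.162. The CL probe entered the test only through placebo-treated MRL/lpr glands, which averaged 0.764.

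**Figure D2:**
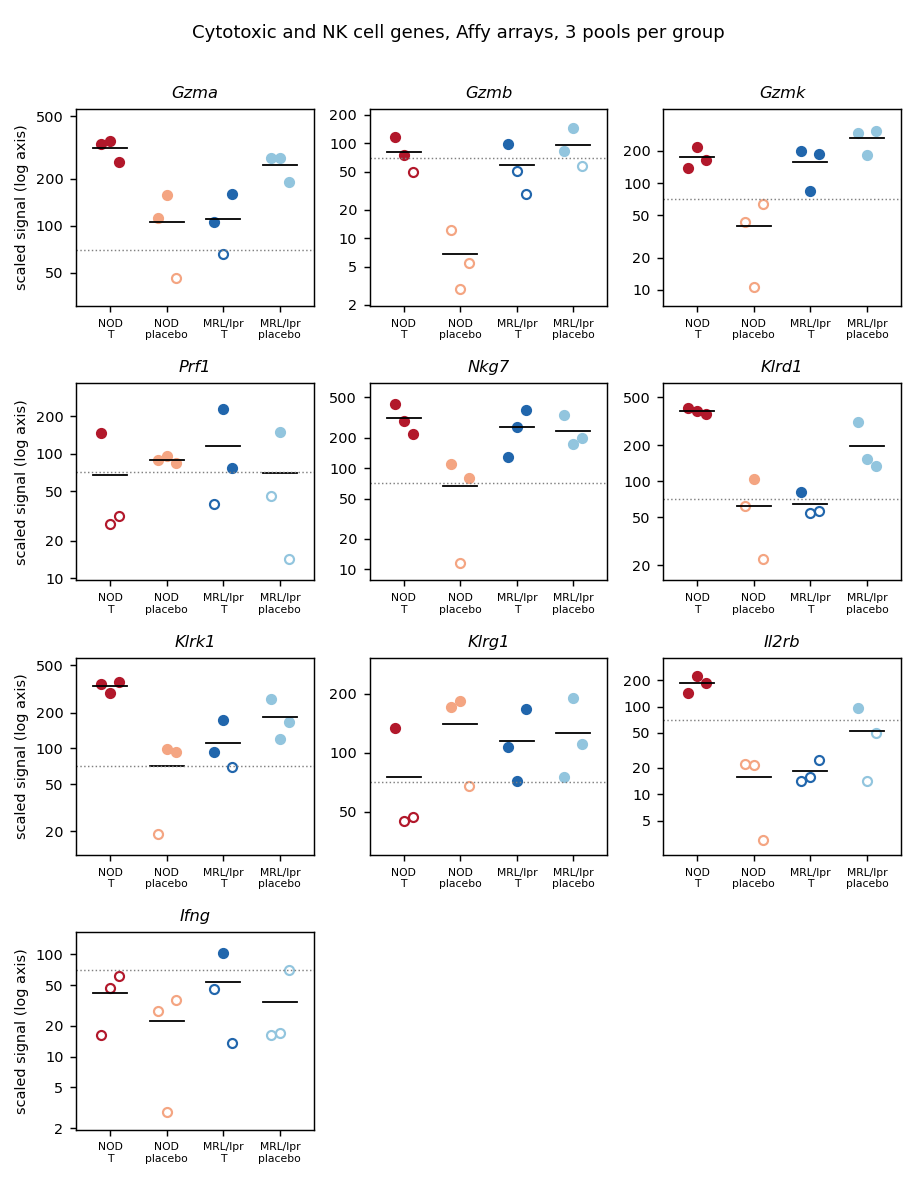
Affy signal (scaled to a trimmed mean of 500, log axis) of the 10 genes by their brightest probe set, laid out as for CL. Open points lie under the floor of 70.5, which is the dotted line. Gzma, Gzmk, Nkg7, Klrd1, Klrk1 and Il2rb were higher in all T-treated than in all placebo-treated NOD pools. So was Gzmb before the floor, but its NOD placebo pools were all under the floor and it was not called.

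Among the NK receptors, Klrk1 gave a rise in NOD glands on both platforms. On CL it measured 1.92, 3.78 and 3.69 in T-treated NOD pools, against 1.52, 0.601 and 0.921 in placebo-treated NOD pools. It measured 0.254, 0.355 and 0.557 in T-treated MRL/lpr pools, against 0.687, 0.374 and 0.613 in placebo-treated MRL/lpr pools, and all 6 were near background. The T-treated NOD pools were the 3 highest of the 12, and 2 of the 3 NOD placebo pools were near background. Klrk1 was 3.17-fold higher with T in NOD glands on CL (log2 1.66 ± 0.34, adjusted p = 0.00471), and this held without any 1 pool. It was not called when NOD arrays were fitted alone (adjusted p = 0.072).

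On Affy Klrk1 read 350, 291 and 363 in T-treated NOD pools, against 18.9, 99.7 and 92.8 in placebo-treated NOD pools. In T-treated MRL/lpr pools it read 93.1, 172 and 70, against 262, 120 and 167 in placebo-treated MRL/lpr pools. The T-treated NOD pools were again the 3 highest, and the MRL/lpr groups overlapped. The rise in NOD glands was 3.84-fold (log2 1.94 ± 0.40, adjusted p = 0.00384) and held without any 1 pool. For MRL/lpr the log2 difference was -0.74 (adjusted p = 0.303).

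Klrd1, the neighbour of Klrk1 in the NK gene cluster of chromosome 6, moved in opposite directions in the 2 strains on Affy. It read 409, 382 and 361 in T-treated NOD pools, against 62.1, 104 and 22.4 in placebo-treated NOD pools. It read 82.1, 54.2 and 56.5 in T-treated MRL/lpr pools, against 310, 152 and 133 in placebo-treated MRL/lpr pools. T pools were all above placebo pools in NOD glands and all below them in MRL/lpr glands. Under the floor were 2 of 3 NOD placebo and 2 of 3 T-treated MRL/lpr pools, so the size of the change is not exact in either strain. Klrd1 was 4.79-fold higher with T in NOD glands (log2 2.26 ± 0.36, adjusted p = 0.000549), which held without any 1 pool. In MRL/lpr glands it fell by 1.31 on the log2 scale (adjusted p = 0.0377), a call kept without NOD T pool 1 or 2, NOD placebo pool 2 or MRL/lpr placebo pool 3, but not without any of the other 8 pools (adjusted p up to 0.145). On the scale as deposited the fall was not called either (adjusted p = 0.572).

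The CL probe for Klrd1 was near background in 11 of 12 pools. It measured 0.674, 1.19 and 0.9 in T-treated NOD pools, against 0.731, 0.278 and 0.149 in placebo-treated NOD pools. The log2 difference in NOD glands was 0.66 with an interval from 0.03 to 1.29 (adjusted p = 0.155). MRL/lpr pools overlapped, at 0.294 to 0.743 with T and 0.374 to 0.899 with placebo.

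Klrg1 was high on CL in 1 group only. It measured 6.51, 12.4 and 21.4 in T-treated MRL/lpr pools, against 1.31, 1.44 and 1.4 in placebo-treated MRL/lpr pools. In T-treated NOD pools it measured 1.09, 1.01 and 1.08, against 1.2, 1.16 and 1.41 in placebo-treated NOD pools. The T-treated MRL/lpr pools were far above the other 9 and were spread widely among themselves. Klrg1 was 8.66-fold higher with T in MRL/lpr glands (log2 3.12 ± 0.34, adjusted p = 7.1e-05), and this held without any 1 pool.

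The Affy probe set for Klrg1 did not show it. It read 107, 71.7 and 167 in T-treated MRL/lpr pools, against 74.9, 191 and 111 in placebo-treated MRL/lpr pools. In T-treated NOD pools it read 133, 45 and 46.7, against 172, 183 and 67.9 in placebo-treated NOD pools. All 4 groups overlapped. The log2 difference in MRL/lpr glands was -0.10 with an interval from -1.06 to 0.86, whereas the CL interval ran from 2.37 to 3.86, so the 2 probes did not give the same change.

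Genes were ranked by how closely their level followed that of Klrg1, the brightest member on CL, over the 12 CL arrays. The 5 with the highest Pearson's r were Hsd3b5 (r = 0.995), Vmn1r216 (0.992), Smarcd3 (0.984), Pxt1 (0.983) and Atp6v0a2 (0.982). Hsd3b5 encodes a steroid-metabolising enzyme that male mouse liver expresses, Vmn1r216 a vomeronasal receptor and Smarcd3 a chromatin remodelling subunit. They had their highest mean CL intensity in T-treated MRL/lpr glands, at 9.02, 0.879, 12.2, 37.3 and 23.8 in that order. That of Vmn1r216 was below the weakest signal rated above background on those 3 arrays, which was 1.04 to 1.61. Hsd3b5, for example, averaged 0.445 ± 0.0575 in T-treated NOD, 0.419 ± 0.1 in placebo-treated NOD, 9.02 ± 5.6 in T-treated MRL/lpr and 0.486 ± 0.211 in placebo-treated MRL/lpr glands (SD, n = 3 each). None of these genes is in the lists of cytotoxic, NK or lymphocyte genes used here. The ranking is a description over arrays that share groups and it carries no test.

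The same ranking on Affy, for Nkg7, the brightest member there, gave Arhgap9 (r = 0.926), Ccdc97 (0.924), Prrx1 (0.909), Ehd1 (0.903) and Hfe (0.901) over 12 arrays. Arhgap9, a GTPase-activating protein of blood cells, averaged 231 ± 42.2 in T-treated NOD and 46.8 ± 17.8 in placebo-treated NOD glands (SD, n = 3 each). It averaged 166 ± 77.4 in T-treated and 136 ± 13.3 in placebo-treated MRL/lpr glands. These 5 genes had their lowest mean in placebo-treated NOD glands, as Nkg7 did.

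Il2rb was measured by a CL probe and 2 Affy probe sets that gave different pictures. On CL it measured 4.15, 4.34 and 4.6 in T-treated NOD pools, against 3.3, 3.93 and 0.409 in placebo-treated NOD pools. In T-treated MRL/lpr pools it measured 4.89, 4.28 and 6.0, against 3.45, 5.52 and 4.19 in placebo-treated MRL/lpr pools. The T-treated NOD pools were all above the NOD placebo pools, of which pool 3 stood far below the other 11 arrays, and the difference in NOD glands was not called (log2 1.22, adjusted p = 0.207). The MRL/lpr groups overlapped.

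The brighter Affy probe set for Il2rb read 141, 225 and 187 in T-treated NOD pools, against 22.2, 21.3 and 3.03 in placebo-treated NOD pools. It read 14.2, 15.5 and 24.8 in T-treated MRL/lpr pools, against 95.5, 14 and 49.8 in placebo-treated MRL/lpr pools. It was above the floor in all T-treated NOD pools and in 1 other pool, and it entered the test only through T-treated NOD glands, so a count that holds it is no support for a rise there. It was at least 2.57-fold higher with T in NOD glands (adjusted p = 0.00264), which held without any 1 pool but not at a doubled floor (adjusted p = 0.163). The second probe set read 81, 74.3 and 56.3 in T-treated NOD pools, against 69.9, 19.4 and 39.4 in placebo-treated NOD pools, and was not called (adjusted p = 0.891).

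Ifng itself could not be tested. All 12 CL pools were near background, at 0.187 to 0.513 in T-treated NOD, 0.413 to 0.627 in placebo-treated NOD, 0.227 to 0.379 in T-treated MRL/lpr and 0.277 to 0.5 in placebo-treated MRL/lpr glands. On Affy only MRL/lpr T pool 2, at 103, was above the floor, and the other 11 pools read 2.9 to 69.7. Genes that interferon gamma induces are given with the other pathway genes.

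**Figure D3:**
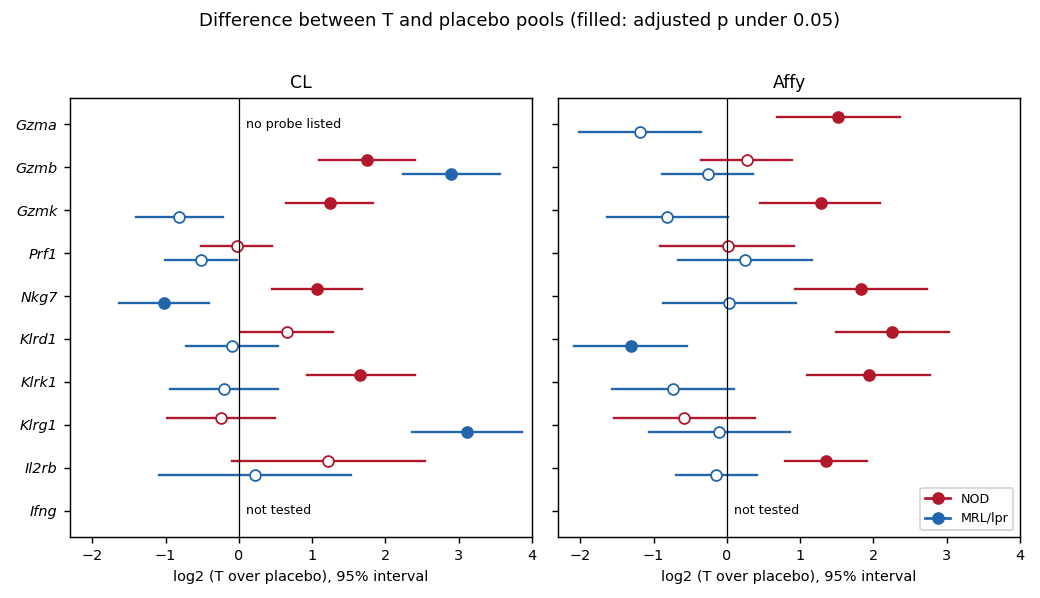
Log2 difference between T and placebo pools for each gene, with 95% interval, on CL and Affy by the brightest probe. NOD (red) is drawn above MRL/lpr (blue), and filled points had an adjusted p under 0.05. In NOD glands 4 genes on CL and 6 on Affy were called, all to the right of 0. Of all probes tested, 16.5% on CL and 9.22% on Affy were called there.

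Whether T acted differently in the 2 strains was tested as the difference of the T effects, NOD minus MRL/lpr. On CL 3 of 8 members had a called positive difference and 1 a called negative one, where 8.04% of all CL probes were called (3.88% positive and 4.16% negative). On Affy 5 of 9 had a called positive difference and 0 a negative one, against 3.92% of all probe sets (3% positive and 0.917% negative). Of the members called, Gzmk, Nkg7, Klrk1 and Klrg1 on CL and Gzmk and Il2rb on Affy had at least 1 group near background or under the floor in all 3 pools, so the size of their difference is not exact. The members' median difference was 0.88 on CL and 1.8 on Affy on the log2 scale, beside -0.105 and -0.041 over all probes tested. Il2rb on Affy entered the test only through T-treated NOD glands and Prf1 on CL only through placebo-treated MRL/lpr glands. These counts and medians are therefore descriptions.

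Gzmk and Klrk1 passed on both platforms. For Gzmk the difference was log2 2.05 ± 0.38 on CL and 2.09 ± 0.55 on Affy (adjusted p = 0.00652 and 0.0402). For Klrk1 it was log2 1.86 ± 0.48 on CL and 2.68 ± 0.56 on Affy (adjusted p = 0.0336 and 0.00999). The CL call for Gzmk and the Affy call for Klrk1 held without any 1 pool. The Affy call for Gzmk was kept only without NOD T pool 1, MRL/lpr T pool 1 or MRL/lpr placebo pool 2 (adjusted p up to 0.107), and the CL call for Klrk1 only without NOD T pool 1 or NOD placebo pool 1 (adjusted p up to 0.0865).

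The largest positive difference was that of Klrd1 on Affy, log2 3.57 ± 0.52 (adjusted p = 0.000437), followed by Gzma on Affy, log2 2.71 ± 0.56 (adjusted p = 0.00915), and both held without any 1 pool. Nkg7 differed by log2 2.09 ± 0.39 on CL (adjusted p = 0.00664), and its Affy difference of 1.80 was not called (adjusted p = 0.122). Il2rb differed by log2 1.51 ± 0.37 on Affy (adjusted p = 0.0297), a call kept without NOD T pool 1, any MRL/lpr T pool or MRL/lpr placebo pool 3 but not without the other 7 (adjusted p up to 0.0729). The Il2rb difference was not called at a doubled floor (log2 0.36, adjusted p = 0.418). Nor was it with the mean over its probe sets (log2 0.73, adjusted p = 0.168). Klrg1 ran the other way on CL, at log2 -3.35 ± 0.48 (adjusted p = 0.00128). Gzmb, higher with T in both strains on CL, had a difference of -1.15 that was not called (adjusted p = 0.143).

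The strains were also compared directly. Under placebo, NOD glands had lower Gzmk than MRL/lpr glands on both platforms, at least 1.74-fold lower on CL and at least 3.63-fold lower on Affy (adjusted p = 0.000368 and 0.00668). Nkg7 was at least 1.43-fold lower in NOD on CL (adjusted p = 0.00113), and its Affy difference of log2 -1.41 was not called (adjusted p = 0.0702). Gzmb was at least 2.11-fold higher in NOD on CL (adjusted p = 0.00124) and was not called on Affy. The Gzmb call on CL was lost with another background correction (log2 0.50, adjusted p = 0.0542) and the Gzmk call on Affy on the scale as deposited (adjusted p = 0.357). These were 1 higher and 2 lower of 8 members on CL, where 9.54% of all probes were called (4.66% higher and 4.88% lower), and 1 lower of 9 on Affy, where 5.34% were called (1.78% higher and 3.56% lower). On Affy 5 of 9 members had every NOD placebo pool below every MRL/lpr placebo pool after the floor, as 13.3% of all probe sets did.

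Under T, Klrk1 was higher in NOD than in MRL/lpr glands on both platforms, at least 2.32-fold on CL and 3.20-fold on Affy (adjusted p = 0.000368 and 0.0121). On Affy Klrd1 was 5.17-fold higher in NOD (adjusted p = 0.000509), Gzma 2.92-fold (adjusted p = 0.0191) and Il2rb at least 2.57-fold (adjusted p = 0.00335). Klrg1 on CL differed by log2 -3.50 (adjusted p = 3.32e-05), lower in NOD glands. These were 1 higher and 1 lower of 8 members on CL, where 12.4% of all probes were called (5.57% higher and 6.85% lower), and 4 of 9 were higher on Affy, where 10.6% were called (5.39% higher and 5.22% lower). Il2rb, 1 of these 4, entered the test only through T-treated NOD glands, so the Affy count is a description. The Il2rb call was lost at a doubled floor (log2 0.36, adjusted p = 0.148). The Affy calls for Gzma and Klrk1 were lost without NOD T pool 2 or MRL/lpr T pool 2 (Gzma, adjusted p up to 0.0857) and without MRL/lpr T pool 3 (Klrk1, adjusted p = 0.064).

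Interferon gamma acts through its receptor to induce chemokines, GTPases and antigen presentation. For this list and those that follow, the shares over all probes tested apply. With T in NOD glands 7.87% were called higher and 8.6% lower on CL, and 5.53% and 3.69% on Affy. With T in MRL/lpr glands these were 6.89% and 5.65% on CL, and 3.32% and 3.58% on Affy. Counts near these shares are not read as results about a list. Of 17 genes of the receptor and target list tested on CL, 14 were called higher and 1 lower with T in NOD glands, and 0 higher and 8 lower in MRL/lpr glands. Of 16 tested on Affy, 13 were higher and 0 lower in NOD glands, and 0 higher and 5 lower in MRL/lpr glands. The median log2 difference was 2.26 on CL and 2.2 on Affy in NOD glands, and -0.89 and -0.61 in MRL/lpr glands. The 1 called lower in NOD glands was Ido1, an enzyme that breaks down tryptophan, named after its values were seen. Ido1 averaged 1.76 ± 0.263 in T-treated NOD and 6.44 ± 2.05 in placebo-treated NOD glands (SD, n = 3 each) and was called lower with T in both strains on CL (log2 -1.82 and -2.25, adjusted p = 0.00355 in NOD and 0.00121 in MRL/lpr). Type I interferon induces many of the same genes.

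Cxcl9, a chemokine that draws CXCR3-bearing T and NK cells, averaged 16.9 ± 5.07 on CL in T-treated NOD glands and 1.69 ± 0.492 in placebo-treated NOD glands (SD, n = 3 each, log2 3.31, adjusted p = 1.6e-05). It averaged 5.63 ± 1.17 in T-treated and 12.5 ± 3.25 in placebo-treated MRL/lpr glands (log2 -1.14, adjusted p = 0.0291). Affy gave log2 4.77 in NOD (adjusted p = 1.54e-08) and -1.06 in MRL/lpr glands (adjusted p = 0.0475). Cxcl10, which binds the same receptor, was at least 4.01-fold higher with T in NOD glands on CL (adjusted p = 2.1e-05), where all 3 placebo pools were near background, and rose by log2 2.21 on Affy (adjusted p = 0.00165). Irgm1, an interferon-induced GTPase, rose in NOD glands by log2 2.49 on CL and 2.46 on Affy. Irgm1 fell by 0.84 on the log2 scale in MRL/lpr glands on Affy (adjusted p = 0.0498) and was not called there on CL (adjusted p = 0.16).

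NK cells carry further receptors and signalling adaptors. Of 20 such genes tested on CL, 9 were higher and 1 lower with T in NOD, and 1 higher and 3 lower in MRL/lpr glands, with medians of 0.87 and -0.37. On Affy 2 of 14 were higher and 0 lower in NOD, and 0 higher and 1 lower in MRL/lpr glands. Over all Affy probe sets 5.53% were called higher and 3.69% lower in NOD, and 3.32% and 3.58% in MRL/lpr glands. Ncr1, the activating receptor NKp46 of NK cells, averaged 1.47 ± 0.359 on CL in T-treated NOD and 0.41 ± 0.168 in placebo-treated NOD glands, at least 1.04-fold higher (adjusted p = 0.00138). Ncr1 averaged 0.57 ± 0.181 in T-treated and 1.38 ± 0.36 in placebo-treated MRL/lpr glands, at least 1.05-fold lower (adjusted p = 0.00857). All placebo-treated NOD and T-treated MRL/lpr pools were near background. Klrc1, the NKG2A chain that pairs with CD94, was called higher in NOD glands on CL with no usable fold (adjusted p = 0.00456), at 0.953 with T, where 2 of 3 pools were near background, and 0.38 with placebo, where all 3 were. It was at least 1.43-fold lower with T in MRL/lpr glands (adjusted p = 8.87e-05). Neither Ncr1 nor Klrc1 was called on Affy.

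Klra5, of the Ly49 family, was the 1 called lower in NOD glands on CL, at 1.33 ± 0.183 in T-treated NOD and 11.9 ± 2.44 in placebo-treated NOD glands (log2 -3.15, adjusted p = 2.19e-06). On Affy it was not called (adjusted p = 0.532). Ly49 genes are near-identical copies whose number differs between inbred strains, so which of them the probe measured is uncertain.

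Of granule genes other than the members, 3 of 12 tested on CL were higher and 0 lower with T in NOD, and 2 higher and 0 lower in MRL/lpr glands. On Affy 3 of 13 were higher and 0 lower in NOD, and 0 higher and 2 lower in MRL/lpr glands. Srgn, the proteoglycan that packs granzymes in granules and that other leukocytes make as well, rose in NOD glands by log2 1.69 on CL and 2.3 on Affy (adjusted p = 0.000596 and 4.15e-05). Ctsw, a cathepsin of NK and CD8 T cells, was at least 1.17-fold higher on CL (adjusted p = 0.009), where all 3 placebo pools were near background, and rose by log2 1.92 on Affy (adjusted p = 0.00172). Gzmc, which lies near Gzmb on chromosome 14, averaged 21.3 ± 3.33 in T-treated MRL/lpr and 10.1 ± 0.961 in placebo-treated MRL/lpr glands on CL (log2 1.07, adjusted p = 0.00146).

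Of the cytokines and receptors around IL-2, IL-15 and IL-12, 5 of 11 were higher and 2 lower with T in NOD glands on CL, and 0 were called in MRL/lpr glands. On Affy 2 of 13 were higher and 1 lower in NOD, and 0 higher and 1 lower in MRL/lpr glands. Stat4, which carries the IL-12 signal to Ifng, was called higher in NOD glands on both platforms, with no usable fold on CL and at least 2.87-fold on Affy (adjusted p = 0.0115 and 0.0366), the placebo pools being near background or under the floor. Il21r on CL entered the test only through T-treated NOD glands, which averaged 1.01 with 2 of 3 pools near background, against 0.288 in placebo-treated NOD glands, and its call (adjusted p = 8.46e-05) has no usable fold. Il15, the survival factor of NK cells, averaged 1.34 ± 0.322 in T-treated NOD and 0.732 ± 0.201 in placebo-treated NOD glands on CL, where all 3 placebo pools were near background, and was not called (adjusted p = 0.0616).

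Of transcription factors of cytotoxic cells, T was followed in NOD glands by 1 higher and 1 lower of 8 on CL, and 2 higher and 1 lower of 5 on Affy. In MRL/lpr glands 0 were higher and 1 lower on CL, and 1 higher and 3 lower on Affy. Over all CL probes 7.87% were called higher and 8.6% lower in NOD, and 6.89% and 5.65% in MRL/lpr glands. The CL counts are near these shares and are not read as a result about the list. Nfil3, which NK cells need to develop and which many other cells express, fell with T in NOD glands by 1.00 on the log2 scale on CL and by 2.48 on Affy (adjusted p = 0.00378 and 5.23e-05). A change of Nfil3 was also called with T in MRL/lpr glands on Affy (adjusted p = 0.0179) but not on CL (adjusted p = 0.411). Prdm1, which shapes effector and plasma cells, was called lower in MRL/lpr glands on both platforms (adjusted p = 0.00911 on CL and 0.0347 on Affy). It fell by 1.18 on the log2 scale on Affy, and on CL it averaged 0.615 with T, where all 3 pools were near background, and 1.29 with placebo, with no usable fold. Tbx21, which encodes T-bet, averaged 0.557 ± 0.0511 in T-treated NOD and 0.743 ± 0.0499 in placebo-treated NOD glands on CL (adjusted p = 0.136), and all of these pools were near background.

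Of ligands that NK receptors read, 0 of 6 tested on CL were higher and 1 lower with T in each strain, and on Affy 1 of 5 was higher in NOD glands. Cdh1, the E-cadherin that Klrg1 binds, averaged 7.58 ± 0.885 in T-treated NOD and 5.36 ± 4.34 in placebo-treated NOD glands on CL (adjusted p = 0.342). Raet1d, a ligand of NKG2D, and Clec2i, a ligand of NKR-P1 receptors, were not called either (adjusted p = 0.622 and 0.744). All Clec2i pools were near background on CL in every group, so a change could not be read there.

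The gland also holds other leukocytes, whose common markers were measured. Of 9 pan-leukocyte markers, 7 were higher and 0 lower with T in NOD glands on CL and 8 higher and 0 lower on Affy. With T in MRL/lpr glands 1 was higher and 4 lower on CL, and 0 higher and 3 lower on Affy. Their summed CL intensity ran from 45.7 to 78.6 in T-treated NOD, 13.5 to 19.2 in placebo-treated NOD, 40.3 to 57 in T-treated MRL/lpr and 54.2 to 76.9 in placebo-treated MRL/lpr pools. Ptprc, the common leukocyte antigen CD45, was at least 3.43-fold higher with T in NOD glands on CL (adjusted p = 0.000186) and fell in MRL/lpr glands by 1.49 on the log2 scale (adjusted p = 0.00367). The integrin chain Itgb2 was at least 1.93-fold higher in NOD glands and fell by 1.07 on the log2 scale in MRL/lpr glands on CL (adjusted p = 0.000559 and 0.0152). With T in MRL/lpr glands neither Ptprc nor Itgb2 was called on Affy (adjusted p = 0.129 and 0.237).

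T cell markers, which NK cells share in part, were higher with T in NOD glands for 6 of 9 on CL and 5 of 10 on Affy, with 0 lower. In MRL/lpr glands 1 was higher and 1 lower on CL, and 0 higher and 1 lower on Affy. Their summed Affy signal ran from 2350 to 3370 in T-treated NOD, 604 to 844 in placebo-treated NOD, 1180 to 1580 in T-treated MRL/lpr and 1920 to 3000 in placebo-treated MRL/lpr pools. The CL sum was also higher with T in NOD glands, at 44.9 to 52.2 against 23.9 to 24.4. In MRL/lpr glands the CL sum was not lower with T, at 37.9 to 56.1 against 25.9 to 37.9 with placebo. Cd3d, a chain of the T cell receptor complex that NK cells lack at their surface, was at least 2.85-fold higher with T in NOD glands on CL (adjusted p = 0.000768) and rose by log2 2.67 on Affy (adjusted p = 0.00039). Cd2, an adhesion molecule of T and NK cells, rose by log2 2.19 and 1.54 (adjusted p = 0.000202 and 0.0219).

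B cell markers were higher with T in NOD glands for 2 of 8 on CL and 6 of 9 on Affy, and lower in MRL/lpr glands for 3 of 8 and 2 of 9. Their summed Affy signal ran from 3110 to 5410 in T-treated NOD, 850 to 1220 in placebo-treated NOD, 986 to 1260 in T-treated MRL/lpr and 1410 to 2080 in placebo-treated MRL/lpr pools. Ms4a1, the B cell antigen CD20, was at least 3.91-fold higher on CL in NOD glands (adjusted p = 0.00123) and at least 1.51-fold lower in MRL/lpr glands (adjusted p = 0.0178). Cd79b, a chain of the B cell receptor, rose by log2 1.89 and fell by 1.28 (adjusted p = 0.00395 and 0.0444). Near-background or sub-floor signals in all 12 pools were found for 0 of 9 pan-leukocyte markers on either platform, 2 of 9 T cell markers and 2 of 8 B cell markers on CL, and 0 of 12 and 0 of 9 on Affy. The part that B cells, T cells and other leukocytes had in the members' levels was not tested.

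Macrophage and dendritic cell markers were higher with T in NOD glands for 3 of 8 on CL and 5 of 11 on Affy, and lower in MRL/lpr glands for 2 of 8 and 2 of 11. Also, 1 of 11 was higher with T in MRL/lpr glands on Affy. The Affy sum of these markers in MRL/lpr pools was higher with T, at 35500 to 45100 against 17800 to 20300. A sum is weighted to the brightest genes, and the median log2 difference of these markers on Affy was -0.29 in MRL/lpr glands. The CL sum was lower with T there, at 47.5 to 72.3 against 84.9 to 99. Of mast cell and basophil markers 0 of 7 were called in NOD glands on either platform, and in MRL/lpr glands 2 were lower on CL and 0 on Affy. Plasma cell markers were higher in NOD glands for 1 of 4 on CL and 0 of 5 on Affy. In MRL/lpr glands 1 was higher and 2 lower on CL, and 0 higher and 1 lower on Affy. Of the acinar and duct markers of the gland 2 of 11 were lower with T in NOD glands on CL and 5 of 13 on Affy, with 1 higher on Affy. In MRL/lpr glands 3 of 11 were lower with T on CL and 2 of 13 on Affy, with 0 higher. Over all probes tested, 8.6% on CL and 3.69% on Affy were called lower in NOD, and 5.65% and 3.58% in MRL/lpr glands. Dmbt1, a secreted protein of glandular epithelium, averaged 8.5 ± 1.81 on CL in T-treated NOD and 64.4 ± 8.18 in placebo-treated NOD glands (adjusted p = 3.62e-05). Dmbt1 was also called lower with T in MRL/lpr glands on CL and Affy (adjusted p = 0.0321 and 0.0168). These epithelial markers were present in every group, with a summed CL intensity of 1630 to 2170 in T-treated NOD, 528 to 2740 in placebo-treated NOD, 2450 to 3370 in T-treated MRL/lpr and 2520 to 2800 in placebo-treated MRL/lpr pools. A CL spot left out for its quality mark added nothing to the sum of that pool. The Affy sum ran from 105000 to 143000 in T-treated NOD and 161000 to 232000 in placebo-treated NOD pools, which did not overlap. MRL/lpr pools overlapped in the Affy sum, at 256000 to 317000 with T and 241000 to 320000 with placebo. Whether a smaller share of gland RNA moved the members was not tested.

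**Figure D4:**
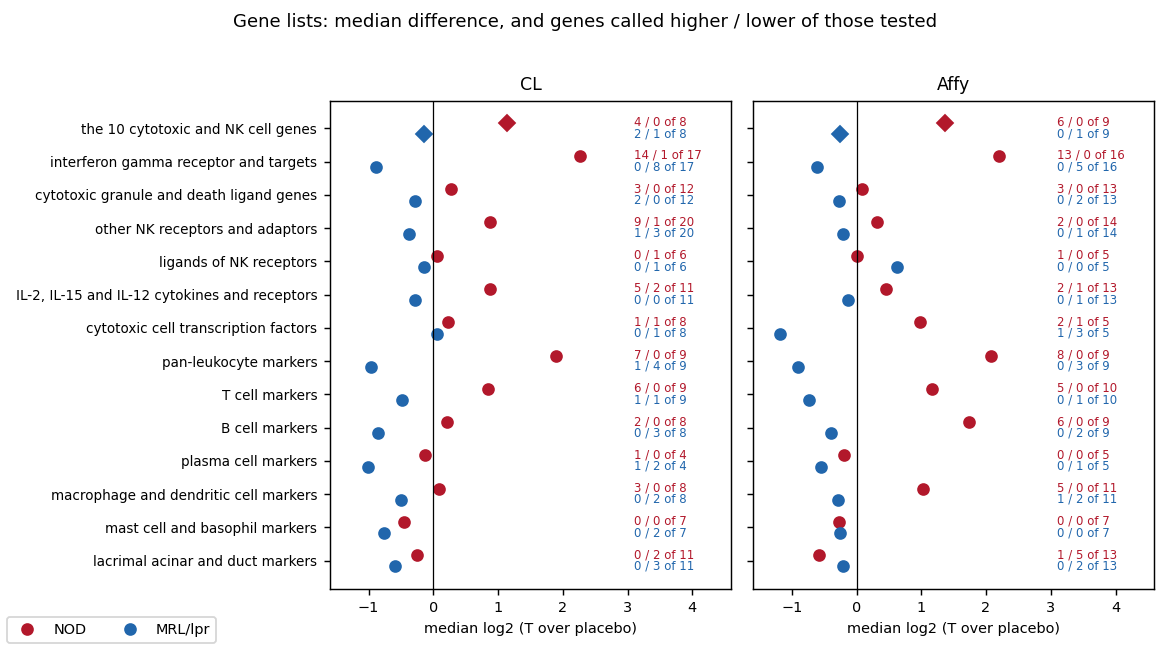
Median log2 difference between T and placebo for the 10 genes (diamonds) and for each other list (circles) on CL and Affy, with NOD in red above MRL/lpr in blue. The figures at the right of each panel are the genes called higher and lower of those tested. Over all probes tested in NOD glands, 7.87% on CL and 5.53% on Affy were called higher, and 8.6% and 3.69% lower. In MRL/lpr glands 6.89% and 3.32% were higher, and 5.65% and 3.58% lower. Interferon gamma targets and pan-leukocyte markers had positive medians in NOD and negative medians in MRL/lpr glands on both platforms.

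Across the arrays as a whole, replicate arrays of a group correlated at 0.915 to 0.977 on CL and 0.911 to 0.987 on Affy over the log2 values tested. Between 47.2% and 61% of CL spots per array were marked near background, which limits what can be said of Ifng and, on CL, of Prf1 and Klrd1. The limit also touches Gzmb, Gzmk, Nkg7, Klrk1 and Klrg1 on CL, each with a group whose 3 pools were all near background. On Affy 28.5% to 42% of probe sets per array were under the floor.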

How the data were processed

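RNA of 12 lacrimal gland pools was hybridised to CL arrays and RNA of 12 pools to Affy arrays, 3 pools in each of 4 groups. The study's methods read as if the same preparations were analysed on both platforms, and CL and Affy pools of the same number and group correlated at 0.014 to 0.234 in their deviations from the group means over 6808 genes. The deposited CL values were spot intensities that the authors' software had corrected for local background and divided by each array's median. The deposited Affy values were probe set intensities from Microarray Suite, stated to be scaled to a trimmed mean of 500, but their trimmed means ran from 22.1 to 150. Each Affy array was therefore scaled to a trimmed mean of 500 here, by factors of 3.334 to 22.58, with 2% trimmed on each side. CL spots marked as contaminated, irregular or masked were left out. In the summed intensities of a list such a spot added nothing to the sum of that pool.

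Intensities were raised to a floor (0.5 on CL, the lowest signal the study's methods analysed, and 70.52 on Affy, a factor of 0.5 of the median scaled signal), and log2 was taken. Probes with a group mean above the floor were tested, 13614 of 17440 on CL and 17891 of 22690 on Affy. The platform annotation gave 1 gene symbol for 11377 CL and 20393 Affy probes. Where a gene had several probes, the brightest stood for it. All 12 arrays of a platform were fitted together in limma 3.58.1 (R 4.3.3; lmFit and eBayes with a trend) with group means only, 2-sided, and p-values were adjusted by Benjamini-Hochberg over all probes tested. The study's methods used a t-test without log values or adjustment, which was run as an alternative. The scripts were tested on simulated data. Precision was limited by 3 pools per group.

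A CL group whose 3 pools were all near background by the software's mark, or an Affy group whose 3 pools were all under the floor, gave only a bound: the mean of the other group was set against a limit, taken on each array as the gene's own signal or, if that was lower, the weakest signal rated above background (on Affy, the floor). Error terms are SD over pools or SE of the fit, and intervals are 95%.

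The genes, the other gene lists and the tests were chosen with earlier results of these data known. All 10 genes were named, as were up to 3 genes per pathway list and 2 per marker list with the smallest adjusted p of the strain by T interaction on CL, and the 5 genes most like the member with the highest mean signal. Other normalizations, scalings, floors, filters, fits and tests were tried, and each pool was left out in turn. Python 3.11.15 with pandas 2.3.3, NumPy 2.4.6 and matplotlib 3.10.9 did the rest.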

Additional observations from a re-analysis of the deposited data

Results flagged for a closer look

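The T effect differed between the strains, by the test of the strain by T interaction in limma (NOD minus MRL/lpr, log2, adjusted p under 0.05), for 9 results among the 10 genes. On CL the difference was 2.05 for Gzmk, 2.09 for Nkg7, 1.86 for Klrk1 and -3.35 for Klrg1. On Affy it was 2.71 for Gzma, 2.09 for Gzmk, 3.57 for Klrd1, 2.68 for Klrk1 and 1.51 for Il2rb. Il2rb on Affy entered the test only through T-treated NOD glands. For Gzmk, Nkg7, Klrk1 and Klrg1 on CL and for Gzmk and Il2rb on Affy, at least 1 group was near background or under the floor in all 3 pools, so the size of the difference is not exact, and the same holds for the genes with such groups among those that follow.

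Among the other named genes of the cytotoxic pathway, the CL difference was 1.93 for Srgn, 2.21 for Ctsw, -0.90 for Gzmc, 2.60 for Klrc1, -2.59 for Klra5, 2.61 for Ncr1, 0.96 for Il21r, 1.98 for Stat4, 1.79 for Il15 and 1.42 for Prdm1. It was 4.45 for Cxcl9, 3.93 for Cxcl10 and 3.06 for Irgm1. The Affy difference was 3.22 for Srgn, 2.67 for Stat4, 5.82 for Cxcl9, 3.30 for Irgm1 and 2.36 for Cxcl10.

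Among the markers of other cells, the CL difference was 2.78 for Cd2, 2.59 for Cd3d, 3.76 for Ms4a1, 3.17 for Cd79b, 1.42 for Mzb1, 2.02 for Lyz1, 1.97 for Itgax, 3.66 for Ptprc, 2.77 for Itgb2 and -1.83 for Dmbt1. The Affy difference was 4.35 for Cd3d, 2.89 for Cd2, 4.10 for Ms4a1, 3.01 for Cd79b, 2.53 for Itgb2, 3.17 for Ptprc and -2.49 for Dmbt1. Within a list the named genes were those that ranked first by this same test, so these values describe the choice and are not independent of it.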

How the results depend on the processing

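For the 57 results of the 10 genes whose difference exceeded its SE, 1313 settings were computed, of which 1169 kept direction and side of the threshold, 121 lost the call, 22 gained one and 1 changed sign. That one was the strain by T interaction of Gzmb on CL, -1.15 in the fit reported and 0.03 with normexp background correction, and neither was called. The cause of the changes was not tested.

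The counts of members called moved by over 1.5 times as follows. For T in NOD glands, CL gave 4 calls but 2 at a doubled floor, 2 with each strain fitted alone and 1 with the methods' t-test after Benjamini-Hochberg, and Affy gave 6 but 0 with that t-test. For T in MRL/lpr glands, CL gave 3 but 0 with that t-test, and the single Affy call became 0 at 0.5 times the floor, without a filter, on the deposited scale, with each strain alone and with that t-test. For the interaction, the 5 Affy calls became 3 with quantile normalization, a doubled floor or the replicate block. For the strains under placebo, the 3 CL calls became 1 with that t-test, and the single Affy call became 2 at a doubled floor, 3 with a stricter filter, 0 on the deposited scale, 2 without a trend, 4 with the t-test before and 0 after adjustment, and 3 with the mean over a gene's probes. For the strains under T, the 2 CL calls became 0 with the adjusted t-test, and the 4 Affy calls became 2 at 0.5 times the floor, 9 on the deposited scale and 1 with that t-test. Before adjustment the methods' t-test called 3 members on CL and 7 on Affy for T in NOD glands.

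Without single pools, the calls for T in NOD glands were 3 to 4 on CL and 4 to 6 on Affy, for T in MRL/lpr glands 2 to 4 and 0 to 1, for the interaction 3 to 4 and 3 to 5, for the strains under placebo 3 to 4 and 1, and for the strains under T 2 to 3 and 3 to 4.

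With the replicate block, the calls were 4, 2, 3, 3 and 2 on CL and 5, 1, 3, 1 and 4 on Affy in the same order. Pools of the same number correlated at -0.0497 to 0.106 in their deviations from the group means, so the numbers were not taken to pair the pools. On the deposited Affy scale the median over all probe sets moved to 0.622 for T in NOD glands, -0.256 for T in MRL/lpr glands, 0.958 for the interaction, 0.458 for the strains under placebo and 1.52 under T, with 1989 higher and 49 lower calls for T in NOD glands, against 989 and 660 in the fit reported, 48 and 47 for T in MRL/lpr glands, against 594 and 640, 704 and 10 for the interaction, against 537 and 164, 87 and 40 for the strains under placebo, against 318 and 637, and 12937 and 36 under T, against 964 and 934. Scaling to the median gave 339 higher and 397 lower for the strains under placebo and 1205 and 500 under T.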
